A study of Mus musculus with 13 samples.

Results

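Imprinted genes are expressed from the allele of one parent, and the mark that tells the parental alleles apart is DNA methylation. The loci described here are those of 10 such genes: H19, Igf2, Kcnq1, Dlk1, Meg3, Igf2r, Peg3, Mest, Grb10 and Plagl1. Their 5-hydroxymethylcytosine (5hmC) was read in 10 bins of 300 kb, set by position for genes chosen with earlier results of these data known. The table has 9097 bins, of which 8576 on the autosomes and X were above 0 in at least 1 tumour and were kept. All 10 bins were kept and were above 0 in all 13 tumours. The RefSeq annotation of GRCm38.p6 places H19 and Igf2 in 1 shared bin, Grb10 across 2 bins, and each of the others, apart from Kcnq1, in 1. For Kcnq1 the annotation went against the bins chosen for it. The gene runs from 143106877 to 143427050 on chromosome 7, in the bins that start at 143100001 and 143400001, while its chosen bins were that of H19 and Igf2 and the next one, starting at 142800001, which holds Ascl2, Th, Cd81 and Tssc4. Both Kcnq1 bins were therefore added, and the bin at 142800001 is called the Ascl2/Th/Cd81 bin. Counts are given over the 10 chosen bins.

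The samples were breast tumours driven by PyMT, the middle T oncogene of polyomavirus, in FVB mice, each from a separate mouse by its title, and 5hmC was measured by shallow tet-assisted bisulfite sequencing. In a genetic model, 4 tumours came from Phd2+/- mice and 3 from PHD2+/+ mice, all at 16 weeks of age. Phd2 encodes an oxygen-sensing prolyl hydroxylase, and the labels describe oxygenation and vessels as restored in Phd2+/- tumours. In a plasmid model, 3 tumours came from mice injected hydrodynamically with the PRRL2-sFlk1 plasmid, for a soluble form of the VEGF receptor Flk1, and 3 from mice injected with empty PRRL2, all at 12 weeks of age, and the labels describe the sFlk1 tumours as more hypoxic. The promoter that drives PyMT is not given in the sources used here, the Phd2 allele is that of the whole mouse, and the cells that took up an injected plasmid are not given either. Age and plasmid injection differ between the models, so groups were compared within a model. Values are percentages of 5hmC per bin. Read depth is unknown, so no interval from counting can be given, and 5hmC is not expression, so the tissue could not be checked by the expression of its markers. Averaged over all kept bins, 5hmC was 2.87% ± 0.265 (SD, n = 4) in Phd2+/- tumours and 2.34% ± 0.137 (n = 3) in PHD2+/+ tumours, and 2.46% ± 0.0670 (n = 3) in sFlk1 tumours and 2.68% ± 0.158 (n = 3) in empty vector tumours.

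At an imprinted locus, an imprinting control region carries methylation on the maternal or the paternal allele, set in the germline and kept through the wave of demethylation after fertilisation. It directs the expression of a cluster of genes around it, often through a long non-coding RNA such as Kcnq1ot1 or Airn, or through an insulator that binds CTCF, as at H19. Several of the proteins act on growth. TET enzymes, which need oxygen, turn 5-methylcytosine into 5hmC, which in most tissues is found mainly within the bodies of expressed genes. A value for a 300 kb bin averages such gene bodies, the control region and everything between them over both alleles. The body of H19 covers 0.872% of its bin and that of Igf2 5.35%, while Igf2r covers 29.1% of its bin and Kcnq1 97.7% of the first of its bins. In DNA from whole tumours, a different mix of cells and a different 5hmC level per cell cannot be told apart.

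The transcription starts of these genes, also within a gene, differ in how many CpG sites, the main target of methylation, precede them. RefSeq promoter entries (GRCm38.p6) were found for 8 of the 10 genes, with none for H19 and Kcnq1. Below are the 250 bases before the first listed start of Meg3, from a bin near the low end of the 5hmC levels, of Igf2r, from the highest bin, and of Plagl1 and Grb10, whose bins lay between, with each CpG in capitals, 5′ to 3′ along the gene. The Meg3 stretch is chr12:109540746-109540995 (plus strand), that of Igf2r chr17:12769707-12769956 (minus), that of Plagl1 chr10:13090582-13090831 (plus) and that of Grb10 chr11:12037421-12037670 (minus).
Meg3: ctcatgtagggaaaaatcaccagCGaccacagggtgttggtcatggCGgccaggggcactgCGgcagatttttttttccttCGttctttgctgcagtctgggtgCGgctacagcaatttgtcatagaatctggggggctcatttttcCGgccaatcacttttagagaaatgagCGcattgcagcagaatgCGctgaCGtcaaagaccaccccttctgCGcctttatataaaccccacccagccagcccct
Igf2r: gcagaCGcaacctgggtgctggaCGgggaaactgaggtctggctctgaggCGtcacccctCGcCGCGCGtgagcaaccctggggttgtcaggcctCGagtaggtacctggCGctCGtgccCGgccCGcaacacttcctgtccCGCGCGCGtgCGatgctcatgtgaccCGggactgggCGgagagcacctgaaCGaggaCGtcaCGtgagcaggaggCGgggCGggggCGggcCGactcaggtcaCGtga
Plagl1: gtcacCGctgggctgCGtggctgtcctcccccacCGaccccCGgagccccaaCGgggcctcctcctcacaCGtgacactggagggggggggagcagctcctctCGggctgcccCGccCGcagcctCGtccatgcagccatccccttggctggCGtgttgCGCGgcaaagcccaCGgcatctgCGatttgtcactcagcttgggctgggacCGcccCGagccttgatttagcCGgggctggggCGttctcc
Grb10: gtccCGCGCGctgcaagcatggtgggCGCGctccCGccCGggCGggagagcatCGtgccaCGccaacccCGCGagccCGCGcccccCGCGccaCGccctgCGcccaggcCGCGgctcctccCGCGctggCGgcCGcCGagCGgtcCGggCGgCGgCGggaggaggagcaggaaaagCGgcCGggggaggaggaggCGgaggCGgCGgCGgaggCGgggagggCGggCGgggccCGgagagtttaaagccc
The letters CG, which read the same on both strands, occurred 10 times before Meg3, 27 times before Igf2r, 19 times before Plagl1 and 40 times before Grb10. Over 32851 promoter entries the median was 6, and 92.1% had at least 1. Dlk1 and Peg3 had 8 each. The second listed start had 0 at Meg3 and 8 at Grb10, and the 4 starts of Igf2 had from 1 to 22. The 5hmC values do not resolve these stretches, each a very small part of its bin, so the counts describe the loci and not the signal.

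The 5hmC of the imprinted bins spanned low to high levels of the genome. Over the 13 tumours the bin means ran from 0.949% at Dlk1 to 4.44% at Igf2r, with a median of 2.61% over the 10 bins, against a median of 2.36% over all 8576 bins. At the low end stood the loci of the growth factor Igf2 with the lncRNA H19, of Dlk1, a Notch-like membrane protein of progenitor cells, and of the lncRNA Meg3. At the high end stood Igf2r, the receptor that clears IGF2, then the first Kcnq1 bin, Mest, and the Grb10 bin that also holds Ddc. In descending order the means were 4.44% ± 1.12 at Igf2r, 4.35% ± 1.31 in the Kcnq1/Kcnq1ot1 bin, 4.12% ± 0.878 at Mest, 4.10% ± 0.606 in the Grb10/Ddc bin and 4.02% ± 1.04 in the Kcnq1/Cdkn1c bin (SD, n = 13 each). Then came Plagl1 with 3.26% ± 0.914, Ascl2/Th/Cd81 with 2.77% ± 1.24, Grb10/Cobl with 2.44% ± 0.689, Peg3 with 1.99% ± 0.833, Meg3 with 1.30% ± 0.452, H19/Igf2 with 1.28% ± 0.425 and Dlk1 with 0.949% ± 0.485. Each step in this order was smaller than the SD of the difference over single tumours. The step nearest to that SD was between Peg3 and Meg3, 0.697 percentage points ± 0.816, where Peg3 was the higher in 12 of 13 tumours. Kcnq1/Cdkn1c exceeded Plagl1, and Plagl1 exceeded Ascl2/Th/Cd81, in 10 of 13 tumours each, and the other steps held in 5 to 9 of 13. Neighbours in the order were not tested.

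**Figure D1:**
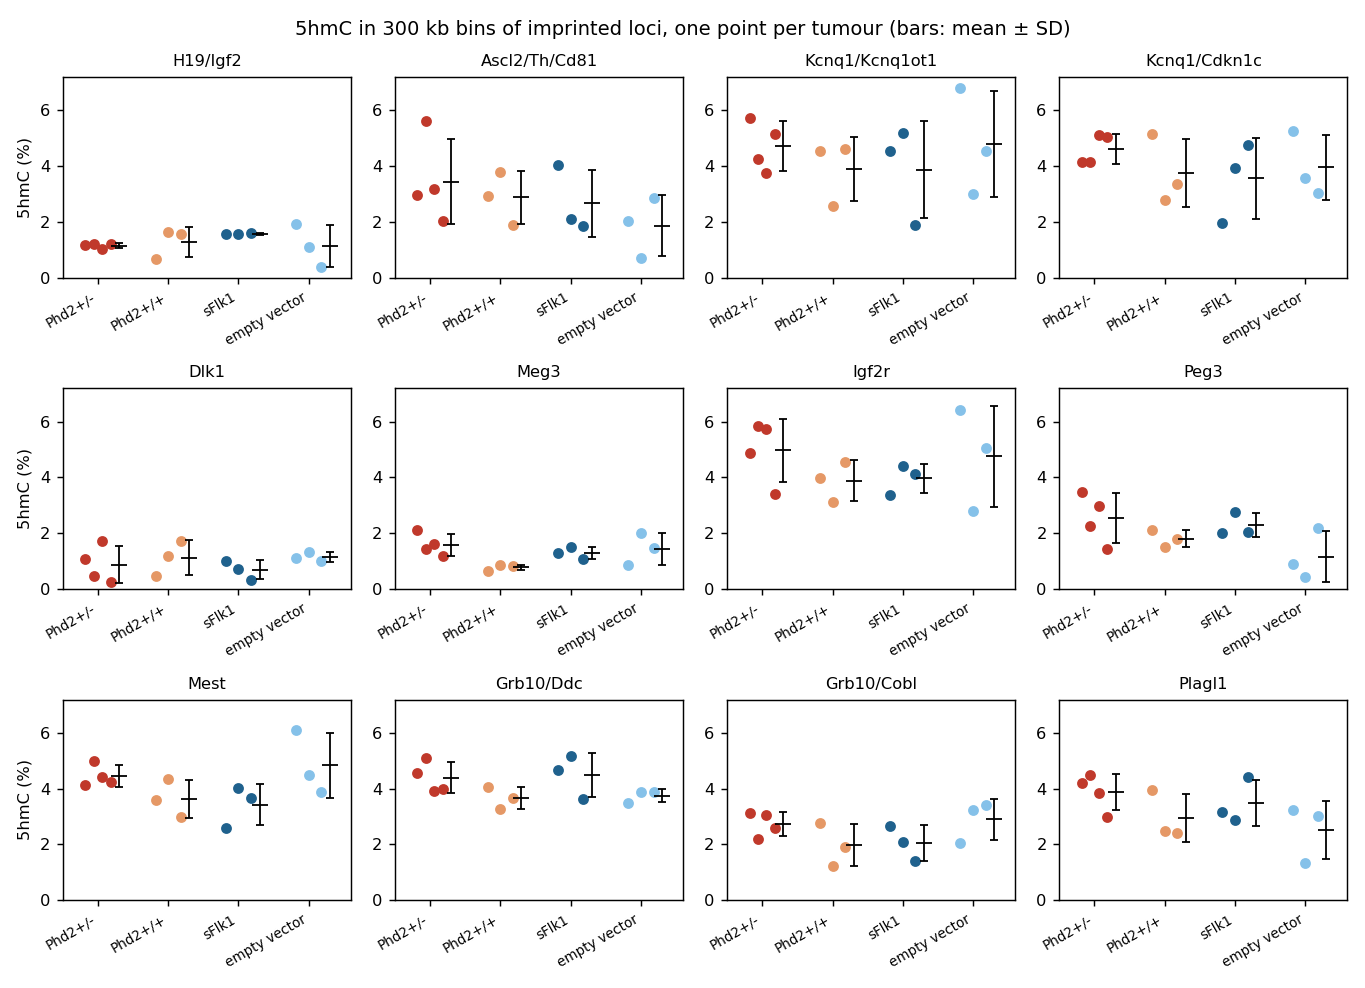
5hmC percentage in each tumour (1 point each) for the 10 chosen bins and both Kcnq1 bins, with tumours grouped on the x axis as Phd2+/-, PHD2+/+ (written Phd2+/+), sFlk1 and empty vector; black marks are the group mean ± SD. H19/Igf2, Dlk1 and Meg3 lie near the bottom of the scale in every group, and at Meg3 the 4 Phd2+/- tumours, from 1.19% to 2.10%, lie above the 3 PHD2+/+ tumours, from 0.653% to 0.842%.

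The H19/Igf2 bin (chromosome 7, 142500001 to 142800000) lay in a local trough. H19 is a maternally expressed lncRNA that also carries a microRNA, Igf2 is a paternally expressed growth factor, and the insulin gene Ins2 is in the same bin. The values were 1.17%, 1.20%, 1.01% and 1.19% in the Phd2+/- tumours and 0.674%, 1.64% and 1.55% in the PHD2+/+ tumours. They were 1.55%, 1.57% and 1.62% in the sFlk1 tumours and 1.92%, 1.09% and 0.392% in the empty vector tumours. Phd2+/- and sFlk1 tumours were each tightly grouped, while PHD2+/+ and empty vector tumours spread around them. This contrast in spread was not tested, and in the next bin, Ascl2/Th/Cd81, the SDs went the other way in both models. The bin was below its tumour's own genome-wide mean in 13 of 13 tumours and stood at the 30.2 percentile of all bins. Its mean of 1.28% was below each of the 5 bins on either side, which ran from 2.49% to 5.75%. Of 8320 bins with 10 measured neighbours, 7.92% were below all of them, so a local minimum of this kind is not rare.

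Moving away from H19 and Igf2 on distal chromosome 7, 5hmC was higher in the next bin and higher again in the first bin of Kcnq1. Ascl2, a transcription factor needed in the placenta, Th, Cd81 and Tssc4 share the bin next to H19/Igf2. That bin was the higher of the pair in 12 of 13 tumours, by 1.496 percentage points ± 1.35 (SD of the difference, n = 13; permutation test by sign flips, two-sided, adjusted p = 0.00366 over 5 pairs of neighbouring bins). The following bin is nearly filled by Kcnq1, a potassium channel gene. The lncRNA Kcnq1ot1, which is transcribed against Kcnq1, covers 27.8% of that bin. This Kcnq1 bin was higher again by 1.58 ± 1.80, a step smaller than its SD over tumours (11 of 13 tumours, permutation adjusted p = 0.0159). The last, with the end of Kcnq1 and the cell cycle inhibitor gene Cdkn1c, differed from it by -0.328 ± 1.48, within the spread (permutation adjusted p = 0.434). That bin also holds Slc22a18, Phlda2, Nap1l4 and Tnfrsf23, and Osbpl5 runs on into the next one. The sign-flip tests of these and the other pairs of neighbouring bins were added after the values were seen, so their p-values describe picked pairs.

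On distal chromosome 12, Dlk1 and Meg3 lay in a wide stretch of low 5hmC. Dlk1 is expressed from the paternal and Meg3 from the maternal allele, and the Meg3 bin (109500001 to 109800000) also holds Rtl1, Rian and Mirg with their clusters of snoRNAs and microRNAs. In the Dlk1 bin (109200001 to 109500000) the values were 1.08%, 0.447%, 1.71% and 0.249% in Phd2+/- tumours and 0.458%, 1.18% and 1.70% in PHD2+/+ tumours. They were 0.999%, 0.726% and 0.326% in sFlk1 tumours and 1.10%, 1.34% and 1.02% in empty vector tumours. The Phd2 groups overlapped widely, while all 3 sFlk1 tumours were below all 3 empty vector tumours. The Dlk1 mean of 0.949% was below all of its 10 neighbours. From Dlk1 through Meg3 and the gene-poor bin after it to the bin of Dio3, a deiodinase gene, 4 successive bins had means from 0.949% to 1.30%, each below the tumour's own mean in 13 of 13 tumours. The Begain bin before Dlk1 had 2.12%, and the bin after Dio3 had 5.23%. Meg3 exceeded Dlk1 in 9 of 13 tumours, by 0.347 ± 0.593 percentage points (permutation adjusted p = 0.0754), which did not pass.

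**Figure D2:**
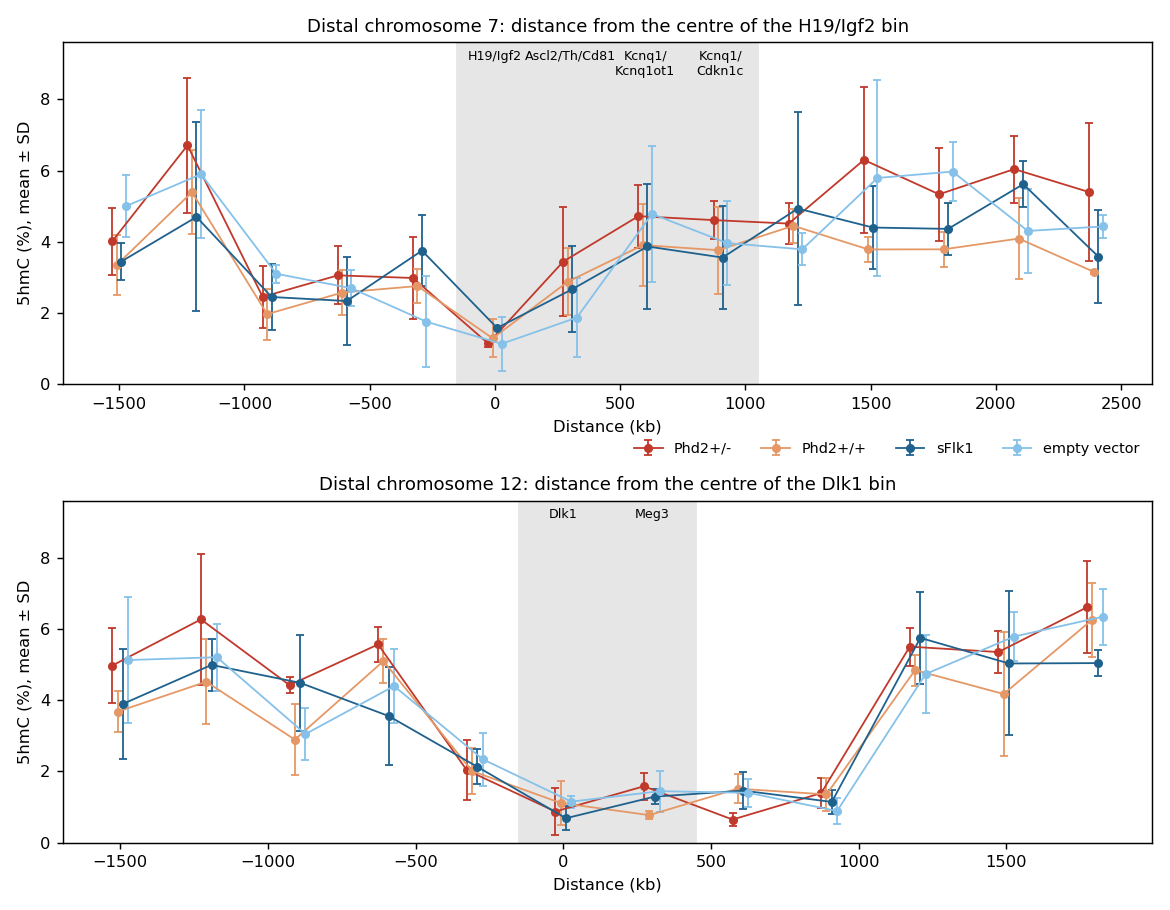
Mean 5hmC percentage ± SD of each group in consecutive 300 kb bins, plotted against distance in kb from the centre of the H19/Igf2 bin (top) and of the Dlk1 bin (bottom); shading marks the imprinted bins named above it. At distance 0 the H19/Igf2 bin lies below the bins around it in the mean over all tumours (1.28% against 2.49% to 5.75%), and the trough on chromosome 12 is 4 bins wide.

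The remaining loci did not share this pattern. Igf2r lies on chromosome 17 in a bin (12600001 to 12900000) with the antisense lncRNA Airn, which silences it on the paternal allele, and it was above the mean of its neighbours in 13 of 13 tumours, by 1.74 percentage points ± 1.08. Grb10, which encodes an adaptor that dampens insulin and IGF1 receptor signalling, lies across 2 bins of chromosome 11 that differed. The bin with most of its body and the decarboxylase gene Ddc (11700001 to 12000000) exceeded the bin with the rest of it and part of Cobl in 13 of 13 tumours. The difference of the Cobl side from the Ddc side was -1.66 percentage points ± 0.794 (permutation adjusted p = 0.00122, from an unadjusted p of 0.000244, the smallest that 8192 sign patterns can give). The Grb10/Ddc bin was also above the mean of its neighbours in 13 of 13 tumours, by 2.47 ± 0.634. At Igf2r and at Grb10/Ddc, 1 of the 10 neighbours had a higher mean than the bin itself. The share of all bins above the mean of their neighbours in every tumour is not given here.

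Peg3, Mest and Plagl1 are all expressed from the paternal allele. Peg3 and Plagl1 encode zinc finger proteins and Mest a protein related to hydrolases. The Peg3 bin (chromosome 7, 6600001 to 6900000), with Zim1 and most of Usp29, had a low level of 1.99%, yet it was above the mean of its neighbours in 11 of 13 tumours, by 0.965 percentage points ± 0.912. Those 10 neighbours had a mean of 1.03%. Mest on chromosome 6 (30600001 to 30900000), in a bin with Copg2, differed from its neighbours by 0.204 ± 0.756. Plagl1 on chromosome 10 (12900001 to 13200000) differed from them by -0.223 ± 0.733. Neither difference exceeded its spread over tumours.

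All kept bins were put into 10 classes by the share of the bin that protein-coding gene bodies cover, and each of the 12 imprinted bins lay between the 10th and 90th percentiles of its class. Dlk1, with 3.62% coverage, was at the 44.8 percentile of its class, and H19/Igf2 and Meg3, with 13.9% and 13.2%, were at the 32.2 and 32.9 percentiles. Counting all annotated gene bodies, lncRNA and small RNA genes included, coverage was 5.91% for Dlk1, but 40.4% for H19/Igf2 and 59.5% for Meg3. Of these 3 bins, Dlk1 thus had low coverage by either count and the others by coding genes alone. The Peg3 bin stood apart most, with 72.7% coverage and a place at the 13.5 percentile of its class, whose median was 3.65%. The first Kcnq1 bin, with 97.7% coverage, was at the 79.9 percentile of the highest class.

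**Figure D3:**
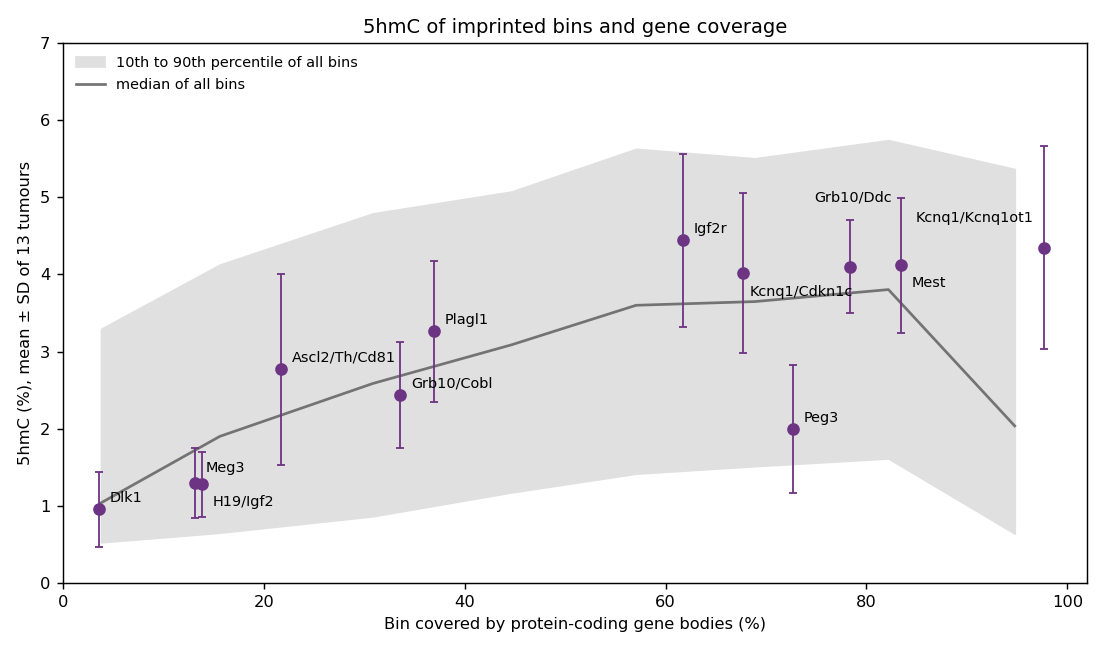
Mean 5hmC ± SD over 13 tumours of each imprinted bin (points) against the percentage of the bin covered by protein-coding gene bodies; the line and the grey band are the median and the 10th to 90th percentiles of all bins in coverage classes, drawn from the class that reaches 7.62% coverage upwards. H19/Igf2, Dlk1 and Meg3 sit at the lower left, and Peg3 (1.99%) lies below the median of bins with like coverage (3.65%).

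The comparison of Phd2+/- with PHD2+/+ tumours asks how 5hmC at imprinted loci differs when tumour oxygenation is restored by genotype. Most imprinted bins had a higher mean in Phd2+/- tumours, as did most of the genome, and 0 passed. Of the 10 bins, 8 had a higher mean and 2, H19/Igf2 and Dlk1, a lower one, against 75.1% of all bins with a higher mean. With limma and Benjamini-Hochberg adjustment over 8576 bins, 0 of the 10 had an adjusted p under 0.05, against 0.0% of all bins, and 1 had an unadjusted p under 0.05, against 10.4% of all bins higher and 0.443% lower. The median difference was 0.749 percentage points over the 10 bins, against 0.385 over all bins, but 0.0783 over the 10 bins once each tumour was divided by its genome-wide mean and scaled back to the mean of all tumours. On that scale 5 of the 10 were higher and 5 lower, against 46.8% and 53.1% of all bins.

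At Meg3 the 4 Phd2+/- tumours had 2.10%, 1.43%, 1.61% and 1.19%, against 0.653%, 0.842% and 0.819% in the 3 PHD2+/+ tumours. The groups did not overlap, which held for this bin of the 10 and for 11.0% of all bins in the higher direction. The means were 1.58% ± 0.385 (SD, n = 4) in Phd2+/- and 0.771% ± 0.103 (n = 3) in PHD2+/+ tumours, a difference of 0.810 percentage points (SE 0.387, limma adjusted p = 0.456; exact permutation p = 0.0571, two-sided, where the smallest possible is 0.0286). Relative to the tumour's mean the groups also did not overlap, with ratios of 0.551 in Phd2+/- and 0.332 in PHD2+/+ tumours. The difference of 0.219 on that scale did not pass either (limma unadjusted p = 0.148). The share of all bins without overlap on that scale is not given here. The bin after Meg3, from 109800001 to 110100000, which was chosen after its values were seen, went the other way, with 0.647% ± 0.189 in Phd2+/- and 1.51% ± 0.414 in PHD2+/+ tumours without overlap, against 0.933% of all bins that were lower without overlap (difference -0.867, SE 0.378, limma adjusted p = 0.421). Over a window of 900 kb centred on the Meg3 bin the difference was -0.0990 percentage points (limma adjusted p = 0.818; over all alternatives for Meg3 it ran from 0.317 to 1.0).

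Neither the bin of the growth factor Igf2 nor that of its receptor passed. At H19/Igf2 the means were 1.15% ± 0.0882 (SD, n = 4) in Phd2+/- and 1.29% ± 0.534 (n = 3) in PHD2+/+ tumours, a difference of -0.144 (SE 0.399, limma adjusted p = 0.916) that was 0.0318 without PHD2+/+ tumour 2 and 0.216 in 900 kb windows. At Igf2r the values were 4.89%, 5.85%, 5.74% and 3.42% in Phd2+/- tumours, against 3.97%, 3.11% and 4.57% in PHD2+/+ tumours. Of the Phd2+/- tumours, 3 were above all PHD2+/+ tumours and the fourth was among them, and the difference of 1.09 percentage points (SE 0.797) did not pass (limma adjusted p = 0.617). Plagl1 had 3.88% ± 0.659 in Phd2+/- and 2.94% ± 0.870 in PHD2+/+ tumours. Peg3 had 2.54% ± 0.901 in Phd2+/- and 1.81% ± 0.311 in PHD2+/+ tumours, and Mest 4.46% ± 0.386 in Phd2+/- and 3.64% ± 0.681 in PHD2+/+ tumours. All of these means were higher in Phd2+/- tumours, with overlap between the groups. The Grb10/Ddc bin had 4.39% ± 0.555 in Phd2+/- and 3.66% ± 0.390 in PHD2+/+ tumours, and the Grb10/Cobl bin 2.74% ± 0.432 in Phd2+/- and 1.98% ± 0.761 in PHD2+/+ tumours. The first Kcnq1 bin had 5.72%, 4.26%, 3.74% and 5.16% in Phd2+/- tumours, against 4.54%, 2.58% and 4.60% in PHD2+/+ tumours. The second had 4.15%, 4.14%, 5.11% and 5.04% in Phd2+/- tumours, against 5.14%, 2.79% and 3.37% in PHD2+/+ tumours. The groups overlapped in both, with differences of 0.813 percentage points (SE 0.875) and 0.845 (SE 0.757). Without PHD2+/+ tumour 2, the lowest of its group in both bins, they were 0.151 and 0.356. With any 1 tumour left out, they reached 1.16 in the first bin and 1.53 in the second, where the tumour left out was PHD2+/+ tumour 1. Over Dlk1, Ascl2/Th/Cd81 and the bins of this paragraph, limma adjusted p ran from 0.592 to 0.916. Each of these differences was within about 1.5 SE of 0.

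**Figure D4:**
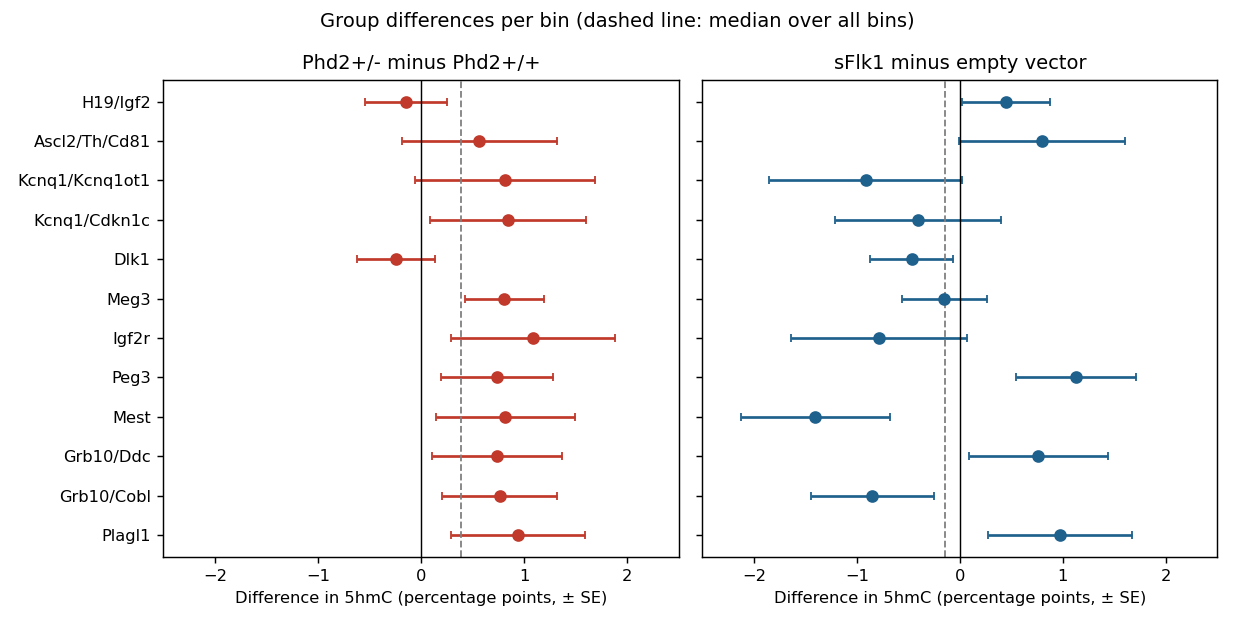
Difference in 5hmC (percentage points, ± limma SE) per bin for Phd2+/- minus PHD2+/+ (Phd2+/+ in the title) tumours on the left and sFlk1 minus empty vector tumours on the right; the dashed line is the median difference over all bins, 0.385 on the left and -0.146 on the right. On the left the points other than H19/Igf2 and Dlk1 are to the right of 0, and on the right they fall on both sides.

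The plasmid model addresses the same loci under less oxygen, with sFlk1 set against empty vector tumours. The imprinted bins showed no common direction: 5 of 10 had a lower and 5 a higher mean in sFlk1 tumours, against 59.5% of all bins lower and 40.3% higher. Divided by each tumour's genome-wide mean, 5 were higher and 5 lower, against 51.9% and 47.9% of all bins. With limma 0 of the 10 passed, against 0.0117% of all bins in either direction, and 0 had an unadjusted p under 0.05, against 5.06% of all bins lower and 2.12% higher. The median difference over the 10 bins was 0.146 percentage points, against -0.146 over all bins. With the bins that overlap the genes in GRCm38.p6, 11 in number with Kcnq1 in place of Ascl2/Th/Cd81, it was -0.407. An exact permutation test of 3 against 3 tumours cannot give a p below 0.10.

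The largest differences in this model among the chosen bins were at Mest and Peg3, in opposite directions. Mest had 2.61%, 4.02% and 3.66% in sFlk1 tumours, against 6.12%, 4.51% and 3.87% in empty vector tumours. The groups overlapped, and the difference of -1.40 percentage points (SE 0.723) did not pass (limma adjusted p = 0.695). Peg3 had 2.01%, 2.78% and 2.06% in sFlk1 tumours, against 0.883%, 0.411% and 2.17% in empty vector tumours. There, 2 empty vector tumours were below all sFlk1 tumours and the other was among them (difference 1.13, SE 0.581, limma adjusted p = 0.696). Without overlap between groups stood the Dlk1 bin, with 0.684% ± 0.338 (SD, n = 3) in sFlk1 and 1.15% ± 0.167 (n = 3) in empty vector tumours (difference -0.467, SE 0.402, limma adjusted p = 0.833; exact permutation p = 0.10). Of all bins, 8.24% were lower without overlap. Relative to the tumour's mean, the Dlk1 groups overlapped.

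Higher means in sFlk1 tumours were also found at 4 bins. H19/Igf2 had 1.58% ± 0.0349 in sFlk1 and 1.13% ± 0.763 in empty vector tumours, and Ascl2/Th/Cd81 2.67% ± 1.20 in sFlk1 and 1.87% ± 1.10 in empty vector tumours. Grb10/Ddc had 4.50% ± 0.795 in sFlk1 and 3.74% ± 0.236 in empty vector tumours, and Plagl1 3.49% ± 0.828 in sFlk1 and 2.52% ± 1.05 in empty vector tumours. The groups overlapped in each. Lower means were found at Igf2r, with 3.97% ± 0.528 in sFlk1 and 4.76% ± 1.82 in empty vector tumours, at Grb10/Cobl, with 2.05% ± 0.632 in sFlk1 and 2.90% ± 0.735 in empty vector tumours, and at Meg3, with 1.29% ± 0.220 in sFlk1 and 1.44% ± 0.578 in empty vector tumours. Both Kcnq1 bins had lower means too, with differences of -0.915 percentage points (SE 0.936) and -0.407 (SE 0.809). None of these passed, with limma adjusted p from 0.774 to 0.957. The difference between the models' contrasts did not pass in any of the 12 bins either. It was widest at Mest, 2.22 percentage points (SE 0.990, unadjusted p = 0.0334, limma adjusted p = 0.346), where Phd2+/- tumours had the higher and sFlk1 tumours the lower mean.

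Other imprinted genes were taken from a list of 58, of which 57 matched the annotation. Outside the 10 chosen and both Kcnq1 bins they lay in 39 bins, those of Begain and Dio3 among them, with a median level of 2.75%. In the Phd2 comparison 31 of these bins had a higher and 8 a lower mean, against 75.1% and 24.8% of all bins, and 5 were higher without overlap between groups, against 11.0% of all bins. With limma 0 passed and 3 were higher at an unadjusted p under 0.05, against 10.4% of all bins. These shares were near those of the genome. In the sFlk1 comparison 25 were lower and 14 higher, against 59.5% and 40.3% of all bins. Without overlap, 3 were lower and 2 higher, against 8.24% and 3.43% of all bins. With limma 0 passed, and at an unadjusted p under 0.05 there were 2 lower and 2 higher, against 5.06% and 2.12% of all bins. The 3 genes with the smallest p in the Phd2 comparison were Nap1l5, Slc22a2 and Slc22a3. At Nap1l5, a paternally expressed gene of chromosome 6, Phd2+/- tumours had 6.62% ± 0.867 (SD, n = 4) and PHD2+/+ tumours 4.28% ± 0.926 (n = 3; limma adjusted p = 0.337). Slc22a2 and Slc22a3, organic cation transporter genes beside Igf2r, share a bin with 3.04% ± 0.304 in Phd2+/- and 1.66% ± 0.363 in PHD2+/+ tumours (limma adjusted p = 0.357). That bin holds only the smaller part of Slc22a2. The larger part lies in the Igf2r bin, where the Phd2 groups overlapped (limma adjusted p = 0.617).

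In the sFlk1 comparison the smallest p belonged to Cobl, a gene of actin assembly beside Grb10, then to Ube3a, a ubiquitin ligase gene, and Zdbf2. The bin with most of Cobl (chromosome 11, 12300001 to 12600000) had 1.97%, 3.79% and 2.26% in sFlk1 tumours, against 6.26%, 4.86% and 4.90% in empty vector tumours. It also had 7.30%, 5.84%, 5.46% and 5.95% in Phd2+/- tumours, against 3.64%, 4.34% and 5.30% in PHD2+/+ tumours. All sFlk1 tumours were thus below all empty vector tumours and all Phd2+/- tumours above all PHD2+/+ tumours, as in 1.21% of all bins. The differences were -2.67 percentage points (SE 0.787, limma adjusted p = 0.466) and 1.71 (SE 0.737, limma adjusted p = 0.419), and neither passed. Ube3a had 3.62% ± 0.335 in sFlk1 and 2.06% ± 0.337 in empty vector tumours (limma adjusted p = 0.661). The bin with the smaller part of Zdbf2 had 2.27% ± 0.727 in sFlk1 and 1.18% ± 0.856 in empty vector tumours (limma adjusted p = 0.683). The bin with most of Zdbf2 went the other way, with 3.19% ± 1.57 in sFlk1 and 3.69% ± 1.61 in empty vector tumours (limma adjusted p = 0.920). Values of Zdbf2 further below are those of the bin with its smaller part.

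Among the neighbours of the chosen bins, Klf14, beside Mest, had 5.98% ± 0.722 in Phd2+/- and 4.64% ± 0.280 in PHD2+/+ tumours, without overlap between groups (limma adjusted p = 0.502; exact permutation p = 0.0571). Of all bins, 11.0% were higher without overlap in this comparison. Klf14 had 4.30% ± 0.949 in sFlk1 and 5.70% ± 0.755 in empty vector tumours, with overlap. The second bins of Usp29 and Osbpl5 and the bin of Begain overlapped between groups in both comparisons. Over the 13 tumours, on percentages divided by the tumour's mean, the bins most like that of H19/Igf2 were those of Dnm3, Eef1aknmt and Vamp4 on chromosome 1 (Pearson r = 0.894), a bin of chromosome 5 with no coding gene (r = 0.823) and that of Gpc3 and Ccdc160 on X (r = 0.820). The chromosome 5 bin had a mean of only 0.463% and was at 0 in 2 of the 13 tumours. The bins most like that of Meg3 held Tlcd4, Alg14, Cnn3 and Slc44a3 on chromosome 3 (r = 0.855), Vmn1r89, Zswim9, Lig1, Pla2g4c, Cabp5 and Bsph1 on chromosome 7 (r = 0.831) and Gm28710 on chromosome 5 (r = 0.785). Each was chosen as the highest among all kept bins, over 13 points, and no chosen bin was among them. Between the 10 chosen bins the coefficient had a median of -0.0387 over 45 pairs, from -0.727 for H19/Igf2 with Grb10/Cobl to 0.617 for Peg3 with Plagl1.

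Bins of 17 marker genes of other cell types and of luminal epithelium, 20 in all, had a higher mean in Phd2+/- tumours for 18, against 75.1% of all bins, and in sFlk1 tumours for 11, against 40.3%. With limma 0 passed in either comparison. At an unadjusted p under 0.05, 4 were higher in Phd2+/- tumours, against 10.4% of all bins, and 1 in sFlk1 tumours, against 2.12%. In the Phd2 comparison the median difference was 0.882 percentage points over 6 endothelial, 0.764 over 5 leukocyte, 0.497 over 5 fibroblast and 1.67 over 4 luminal bins. In the sFlk1 comparison it was -0.257 over the endothelial, 0.202 over the leukocyte, 0.934 over the fibroblast and -0.0338 over the luminal bins. The part of cell mix in the values of the imprinted bins was not tested.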

How the data were processed

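The authors deposited 1 table of percentages: 5hmC per 300 kb bin, 1 column per tumour. The submitters' processing notes list Bismark 0.13.1 and the mm9 build without saying what each was used for, while the chromosome ends in the table are those of GRCm38. Per the labels' protocols, DNA was extracted with an iron chelator in the buffers, TAB-converted and bisulfite-treated. How calls were pooled within a bin, coverage and conversion rates were not given in the sources used, so a bin with few reads counts like any other. Columns were matched to tumours by the labels' descriptions and groups taken from titles. Bins of the autosomes and X above 0 in at least 1 of 13 tumours were kept. Percentages were fitted with limma 3.58.1 in R 4.3.3, with 4 group means in 1 fit and a variance trend, and Benjamini-Hochberg adjustment over 8576 bins at 0.05. The step was tested on simulated data. Single bins were also compared by exact two-sided permutation of tumours. Neighbouring bins of a locus were compared within tumours by sign flips, a test added after values were seen. Genes were placed in each bin their body overlaps (RefSeq, GRCm38.p6). The rule named all 10 genes and their bins, listed imprinted genes in or next to them, the 3 others with the smallest p per comparison, and the 3 bins most like H19/Igf2 and Meg3. Members and lists were chosen with earlier results of these data known. Alternatives were other scales, other filters, groups fitted alone, no trend, 900 kb windows, the replicate number as a block and each tumour left out.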

Additional observations from a re-analysis of the deposited data

Results flagged for a closer look

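In the H19/Igf2 bin, Phd2+/- tumour 3, at 1.01%, lay apart from the other 3 Phd2+/- tumours, which were between 1.17% and 1.20%. Its gap to the nearest of them was 0.853 of the group's whole range, above Dixon's critical value for 4 samples. The range itself was narrow, and chance gives such a gap in about 1 of 20 groups of 4, while 21 bins were examined in this way.

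In the Cobl bin beside Grb10, the contrasts of the models went in opposite directions without overlap, higher in Phd2+/- than in PHD2+/+ tumours and lower in sFlk1 than in empty vector tumours. The difference between the contrasts was 4.38 percentage points (SE 1.08, unadjusted p = 0.000387, limma adjusted p = 0.163), which did not pass over all bins. Of all bins, 1.21% showed this pattern of groups.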

How the results depend on the processing

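Shallow reads and the missing depth limit all of these values, and no chosen bin passed under any alternative run. Over the 10 chosen bins, both Kcnq1 bins and 9 bins of other imprinted genes, each in both comparisons, the direction was kept in 360 of 378 values under other settings and in 251 of 273 with 1 tumour left out. Fitting groups alone, no trend and other filters leave the group difference as it was, as does the replicate block in the sFlk1 comparison. Their values are among the 378 and could not reverse, so the first count overstates how stable the directions are. The cause of the reversals was not tested, and none of the reversed values was past the threshold before or after. Divided by the tumour's mean, the Phd2 difference (as a ratio) was -0.0711 at Ascl2/Th/Cd81, -0.0104 at Mest, -0.0307 at Grb10/Ddc, -0.170 at Begain, -0.0846 at Zdbf2 and -0.327 in the second bin of Osbpl5. In 900 kb windows the Phd2 difference was 0.216 percentage points at H19/Igf2, 0.199 at Dlk1 and -0.0990 at Meg3, and the sFlk1 difference -0.171 at Grb10/Ddc, -0.503 at Slc22a2 and Slc22a3, -0.185 at Nap1l5, -0.218 at Osbpl5 and 0.274 at Usp29. On the log2 scale Begain had -0.0224 (Phd2) and Slc22a2 with Slc22a3 -0.0399 (sFlk1), and on the arcsine scale -0.000489 and -0.000666. The median Phd2 difference over the 10 bins was 0.0783 percentage points after division by the tumour's mean and scaling back to the mean of all tumours, and with 1 tumour left out it ran from 0.643 to 0.915. The median sFlk1 difference was -0.407 with the bins that overlap the genes, and ran from -0.0323 to 0.330 with 1 tumour left out.

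With 1 tumour left out, the Phd2 difference ran from -0.452 to 0.0318 percentage points at H19/Igf2, from -0.156 to 1.04 at Ascl2/Th/Cd81, from -0.568 to 0.0545 at Dlk1, from -0.337 to 0.404 at Begain, from -0.117 to 0.423 at Zdbf2 and from -0.207 to 0.263 at Osbpl5. The sFlk1 difference ran from -1.81 to 0.0880 and from -1.02 to 0.388 in the first and second Kcnq1 bins, from -0.449 to 0.129 at Meg3, from -1.76 to 0.0369 at Igf2r, from -0.620 to 0.119 at Begain, from -0.415 to 0.524 at Slc22a2 and Slc22a3, from -0.0829 to 2.595 at Osbpl5 and from -0.665 to 0.211 at Usp29. The number of bins that limma called in the whole genome was 0 in the Phd2 comparison, 1 on the log2 scale and 0 to 1 with 1 tumour left out, with 892 higher and 38 lower at an unadjusted p under 0.05, and 1 in the sFlk1 comparison, 1 to 4 with 1 tumour left out. With the replicate number as a block these counts were 0 and 1, and the Meg3 difference was 0.941 percentage points (limma adjusted p = 0.353). Only the Phd2+/- group has a tumour 4, so in the Phd2 comparison the block gives the same difference as leaving that tumour out. It is therefore not a separate check there. Tumours with the same number did not deviate together (correlations of -0.0934 to -0.00429), and in 0 of 6 pairs did a tumour match its own number best. These values gave no sign of pairing by number, but shallow reads could hide it, and the labels do not say what the number marks.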
